A study of Mus musculus with 23 samples.

Results

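Chemokines are small secreted proteins that steer migrating leukocytes, and chemokine receptors are the membrane proteins that read them. The genes described here are the chemokine ligands and receptors counted in the head of the pancreas of C57BL/6 mice during recovery from caerulein pancreatitis. They were chosen by name: a symbol had to start with Ccl, Cxcl, Cx3cl, Xcl, Ccr, Cxcr, Cx3cr or Ackr followed by a number, and it was reported where at least 10 fragments were counted in 7 or more of the 23 mice. Among 18512 symbols, 50 with such a name are described and 15 of these were reported: 9 ligands (Cxcl12, Cxcl13, Cxcl14, Cxcl16, Ccl6, Ccl9, Ccl11, Ccl21a and Ccl25), 4 receptors that signal through G proteins (Ccr1, Ccr2, Cx3cr1 and Cxcr4) and the 2 atypical receptors Ackr3 and Ackr4.

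Caerulein, an analogue of cholecystokinin that overstimulates the acinar cells, had been injected intraperitoneally at 50 µg/kg, 8 times a day at hourly intervals on 2 consecutive days, into wild-type C57BL/6 mice of 6 to 8 weeks from a commercial breeder. Baseline mice were non-injured (n = 8, 4 female and 4 male), and injured mice were examined at day 7 (n = 8, 4 female and 4 male) or day 14 (n = 7, 3 female and 4 male), counted from a day after the last injection. RNA came from whole tissue with no sorting of cells, so a change in a transcript can come from the number of cells that make it or from the amount of RNA per cell, and these cannot be told apart. The comparisons ask which chemokine genes still differed from baseline at each time of recovery, and whether the sexes differed.

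Chemokine ligands are named after the spacing of their first cysteines: in CC ligands (Ccl) the pair is adjacent, and in CXC ligands (Cxcl) another residue lies between them. The typical receptors signal through inhibitory G proteins, whereas the atypical receptors bind and take up chemokines without that signal and so shape the gradients. In the injured pancreas, Ccr2 and its ligands are known for bringing monocytes from the blood into the tissue, and Ccr7, Cxcr5 and their ligands Ccl19, Ccl21a and Cxcl13 are known for placing lymphocytes in lymphoid tissue.

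The stretches below show that spacing in the 9 reported ligands and therefore which family each belongs to. Each is a run of 30 bases of the coding sequence, 5′ to 3′, from GENCODE vM21 transcripts for GRCm38, and the capitals mark the codons of the cysteine pair. The 5 CC ligands had 0 codons between the capitals and the 4 CXC ligands had 1.
Ccl6: tcttcagacTGCTGCttctcttatgccaca
Ccl9: tcttcagatTGCTGCctgtcctataactca
Ccl11: ccaacttccTGCTGCtttatcatgaccagt
Ccl21a: ggtcaggacTGCTGCcttaagtacagccag
Ccl25: tttgaagacTGCTGCctgggttaccagcac
Cxcl12: agctaccgaTGCcccTGCcggttcttcgag
Cxcl13: aacttaaaaTGTaggTGTtctggagtgatt
Cxcl14: gggtccaagTGTaagTGTtcccggaagggg
Cxcl16: gctggaagtTGTtctTGTgatcgtaccatt

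Total counts ranged from 7059890 to 9567446 per mouse. As a check of the tissue label, 9 acinar marker genes summed to 1029000 to 2792000 normalized counts per mouse. A normalized count is the count divided by the mouse's effective library size from TMM scaling and multiplied by the mean effective library size of 8699743. In 4 libraries B and T cell markers stood far above the rest: baseline mouse 5, day 7 mice 10 and 15 and day 14 mouse 21. Their 10 B cell and 10 T cell markers summed to 1194 to 2091 normalized counts, against at most 424 in the other 19 mice, and they are called lymphocyte-rich below. No library was left out of the values below unless this is said.

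Chemokine transcripts were scarce. The 15 reported members together took 0.00481% ± 0.00192 of all counts at baseline (SD, n = 8), 0.00971% ± 0.00389 at day 7 (n = 8) and 0.0062% ± 0.00161 at day 14 (n = 7). Baseline mice spanned 0.00272% to 0.00795%, day 7 mice 0.00578% to 0.0161% and day 14 mice 0.00498% to 0.00921%, so the groups overlapped. The share was higher at day 7 than at baseline by 0.0049 percentage points (exact two-sided permutation test over 12870 splits, p = 0.00373, adjusted over 3 comparisons 0.0112). The difference of day 14 from day 7 was -0.00351 percentage points (exact permutation p = 0.0434, adjusted 0.0651), and the difference of day 14 from baseline was 0.00139 (exact permutation p = 0.155). The 20 most abundant genes took 66.4% to 71.2% of the counts at baseline and 55.3% to 62.8% at day 7, and a fall in these genes raises the share of every other gene. Of the counts outside those 20 genes, the members' mean share was higher at day 7 than at baseline by 0.00852 percentage points (exact permutation p = 0.0315, unadjusted). The difference of day 14 from day 7 was -0.00634 percentage points (exact permutation p = 0.1, unadjusted). These p-values were not adjusted over the 3 comparisons, so they cannot be set beside the adjusted 0.0112.

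In CPM per kilobase of merged exons, the order of the levels over all 23 mice was led by Ccl21a at 5.59 ± 8.83 (SD), followed by Ccl11 at 3.68 ± 1.12, Ccl6 at 3.00 ± 1.94, Cxcl12 at 2.74 ± 0.59, Cxcl13 at 2.05 ± 2.28 and Cxcl14 at 1.29 ± 0.433. The next were Ccl9 at 1.22 ± 0.64, Ackr3 at 1.22 ± 0.288 and Ccr2 at 1.10 ± 0.643. The other 6 members had levels of 0.17 to 0.881 by this length, with Ackr4 the lowest. The merged exons span 7445 bases for Ccl25 and 5380 for Ackr4, while their longest coding transcripts held only 984 and 2315 windows of 75 bases. The places of these genes in the order therefore depend on the length used. Each of the first 6 differed from its neighbour in this order by less than the SD of one of them. Without the 4 lymphocyte-rich libraries described above the mean of Ccl21a was 1.83, below that of Ccl11 at 3.69. On the scale of log2 CPM, the pooled SD within groups was 1.73 for Cxcl13, 1.64 for Ccl21a, 0.86 for Cxcr4, 0.81 for Cx3cr1 and 0.68 for Ccl6. It was 0.30 for Ackr3 and 0.31 for Cxcl12, the least variable members, against a median of 0.22 over all genes tested.

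**Figure D1:**
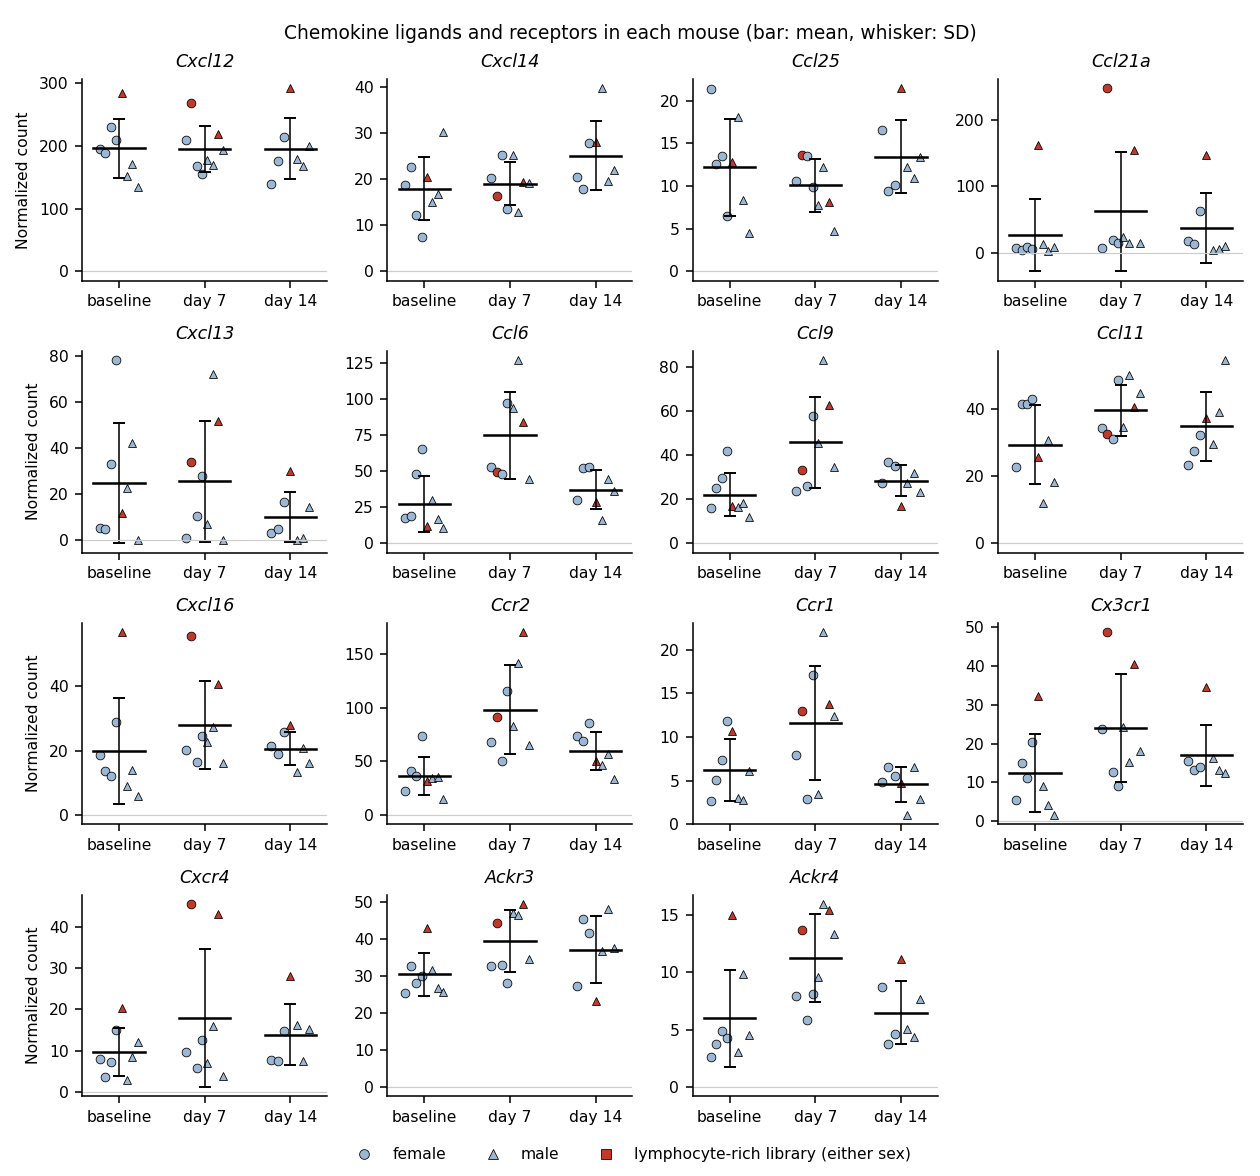
Normalized counts of the 15 reported members in each of 23 mice (vertical axes, linear scale) by time point, with females as circles, males as triangles, lymphocyte-rich libraries in red, and the mean and SD of each group in black. The day 7 mice stand highest as a group for Ccr2, Ccl6 and Ccl9, while for Ccl21a the 4 red points lie between 147 and 247 and all other points at or below 62.8.

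Against baseline, members were called at day 7. With edgeR's quasi-likelihood test, 4 of the 14 members that passed the filter on low counts were called higher at day 7 (adjusted p of at most 0.05 over 12195 genes and a fold change of at least 1.5) and 0 were called lower. Over all genes tested, 3.82% were called higher. The 4 were the receptor Ccr2, the ligands Ccl6 and Ccl9, and the atypical receptor Ackr4. The median log2 fold change of the 14 was 0.67, against 0.02 over all genes, and 12 of the 14 had a positive value. Without the lymphocyte-rich libraries the median was 0.39. Ccr1 did not pass the filter. Ackr4 has its 10 or more counts in 5 day 7 mice, 1 baseline mouse and 1 day 14 mouse, so it passed largely through the group where it is high, and the count of 4 includes it. Ccl21a reached 10 counts in 7 day 7 mice, 1 baseline mouse and 5 day 14 mice, and Cxcr4 in 5, 2 and 4. Day 7 supplied the most such mice for each of these, so the median of 0.67 and the 12 positive values are not free of the filter. In none of the 14 did every day 7 mouse exceed every baseline mouse, as was the case for 1.16% of all genes tested.

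Among the receptors that monocytes and macrophages carry, Ccr2 was called. Ccr2, the receptor that draws monocytes out of bone marrow and into tissue, had 15.1, 34.9 and 74.0 normalized counts at baseline (lowest, median and highest mouse), 50.3, 86.9 and 170.3 at day 7, and 33.6, 56.7 and 85.9 at day 14. All 8 day 7 mice exceeded the baseline median and 5 of them exceeded every baseline mouse, the highest of which was mouse 4. Its mean rose from 36.5 ± 17.3 (SD, n = 8) to 98.1 ± 41.4 (n = 8), a log2 fold change of 1.43 ± 0.29 (SE) and an adjusted p of 0.00164. Ccr2 lies at chr9:124101950-124113557 on the plus strand (GRCm38). Ccr1, a receptor of monocytes and neutrophils that binds Ccl6 and Ccl9, lay at the edge of the rule with 10 or more counts in 7 mice, 5 of them at day 7 and 2 at baseline. It had a median of 5.54 normalized counts at baseline, 12.7 at day 7 and 4.87 at day 14. In a fit that kept every gene with 10 counts in 7 mice, its day 7 log2 fold change was 0.86 (edgeR, adjusted p = 0.122).

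Among the ligands, the neighbours Ccl6 and Ccl9, a pair of CC chemokines made by macrophages and other myeloid cells, were higher at day 7. Ccl6 had 10.6, 18.1 and 65.4 normalized counts at baseline, 45.0, 68.6 and 127 at day 7 and 16.3, 36.5 and 52.7 at day 14. All 8 day 7 mice lay above the baseline median, and the baseline range reached into the day 7 range only through mice 3 and 4. Its log2 fold change was 1.48 ± 0.35 with an adjusted p of 0.0058, the largest change among the members tested. Ccl9 had 12.1, 17.7 and 41.8 normalized counts at baseline, 23.8, 39.9 and 83.0 at day 7 and 16.8, 27.5 and 36.9 at day 14. Its log2 fold change was 1.05 ± 0.27 with an adjusted p of 0.00741, and 4 of 8 day 7 mice exceeded every baseline mouse.

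Because these 2 ligand genes lie only 9245 bases apart on the minus strand of chromosome 11 and changed in the same direction, the 250 bases before each start site are shown (RefSeq, GRCm38.p6, 5′ to 3′ in the direction of transcription). Ccl6 occupies chr11:83587882-83593087 and Ccl9 chr11:83572919-83578636, and the windows are chr11:83593088-83593337 for Ccl6 and chr11:83578637-83578886 for Ccl9. Capitals mark matches to any of 4 motifs searched on both strands: the NF-kB motif (GGG, any 2 bases, then TTTCC), the PU.1 core GAGGAA, the TATA box TATAAA and the C/EBP motif TTGCNNAA.
Ccl6: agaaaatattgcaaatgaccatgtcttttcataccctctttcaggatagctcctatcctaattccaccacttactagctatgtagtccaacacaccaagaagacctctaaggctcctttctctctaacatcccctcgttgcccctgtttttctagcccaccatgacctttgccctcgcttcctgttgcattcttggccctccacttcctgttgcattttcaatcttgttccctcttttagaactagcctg
Ccl9: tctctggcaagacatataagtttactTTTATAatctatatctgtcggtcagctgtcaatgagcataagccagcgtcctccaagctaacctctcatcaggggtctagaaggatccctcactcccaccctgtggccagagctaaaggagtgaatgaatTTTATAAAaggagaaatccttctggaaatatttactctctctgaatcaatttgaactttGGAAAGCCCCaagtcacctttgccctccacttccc
The Ccl6 window held none of the 4 motifs. The Ccl9 window held 1 NF-kB match, which began 35 bases before the start site, and 3 TATA box matches that began 224, 94 and 92 bases before it, the last 2 of which overlap on opposite strands. Of 32851 promoter windows of the same length, 1.41% held the NF-kB motif, 23.3% the PU.1 core, 12.4% the TATA box and 9.56% the C/EBP motif. A match describes letters only, and so does the lack of one.

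The third monocyte and macrophage list member with enough counts was Ccl11 (eotaxin), which attracts eosinophils through Ccr3. It had 12.1, 28.3 and 42.9 normalized counts at baseline, 31.0, 37.7 and 50.3 at day 7 and 23.4, 32.3 and 54.7 at day 14. The groups overlapped widely, and the day 7 log2 fold change of 0.41 ± 0.21 was not called (adjusted p = 0.174). Its receptor Ccr3 had at most 20 counts in any mouse.

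Of the 2 reported atypical receptors, Ackr4 was called at day 7 and Ackr3 was not. Ackr4, which takes up Ccl19, Ccl21 and Ccl25, had 2.67, 4.41 and 14.99 normalized counts at baseline, 5.81, 11.5 and 15.99 at day 7 and 3.78, 5.09 and 11.2 at day 14. Its log2 fold change at day 7 was 0.89 ± 0.30 with an adjusted p of 0.0385, and only 2 of 8 day 7 mice exceeded every baseline mouse, since baseline mouse 5 had 14.99. With 39 counts over all baseline mice, the call was the least stable of the 4: it was lost without any of baseline mice 1, 2, 3, 4, 6 or 8 (adjusted p from 0.055 to 0.0799, log2 fold changes from 0.77 to 0.90), and Ackr4 fell under the filter on low counts without any of mice 5, 10, 13, 14, 15 or 16. Part of Ackr4 overlaps Acad11 on the opposite strand, with which 12% of its windows were shared. Acad11 itself had a day 7 log2 fold change of 0.06 ± 0.07 (adjusted p = 0.601), and whether fragments were assigned by strand is not given in the sources used here. Ackr3, the atypical receptor that clears Cxcl12, was among the steadiest members with 25.3, 29.1 and 42.8 normalized counts at baseline, 27.99, 39.3 and 49.5 at day 7 and 23.3, 37.4 and 48.0 at day 14. Its day 7 log2 fold change of 0.37 ± 0.16 was not called (adjusted p = 0.105).

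**Figure D2:**
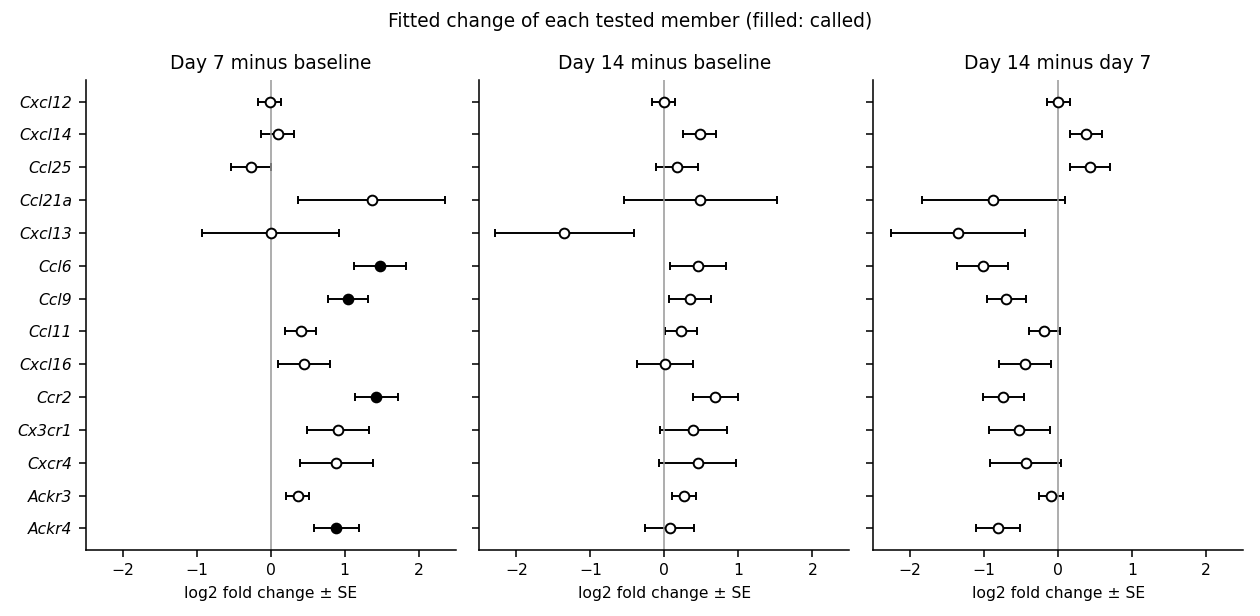
Fitted log2 fold change with its SE (horizontal axes) for the 14 members tested, in the 3 comparisons of time points, with filled points for members called. At day 7 Ccl6 (1.48), Ccr2 (1.43), Ccl9 (1.05) and Ackr4 (0.89) are filled, and no point is filled in the other 2 comparisons.

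Ligands known from uninjured tissue were not called at any time. Cxcl12, a stromal chemokine that retains Cxcr4-bearing cells, was the member with the most counts: 135, 192 and 284 normalized counts at baseline, 155, 185 and 267 at day 7 and 138, 179 and 291 at day 14. Its group means were 195 ± 46.8 (SD, n = 8), 194 ± 36.2 (n = 8) and 195 ± 48.6 (n = 7), and the log2 fold changes from baseline were -0.01 ± 0.15 at day 7 (adjusted p = 0.967) and -0.01 ± 0.16 at day 14 (adjusted p = 0.991). Scaling to the total count, which moved the median of all genes from 0.02 to 0.48, gave Cxcl12 a day 7 value of 0.44. That value had an adjusted p of 0.0416 in edgeR but lay under the 1.5-fold threshold. The highest mouse of each group was a lymphocyte-rich one. Cxcl14, a ligand made by epithelial and stromal cells, had 7.51, 17.8 and 30.2 normalized counts at baseline, 12.95, 19.3 and 25.2 at day 7 and 17.9, 22.1 and 39.7 at day 14. Its log2 fold change was 0.10 ± 0.22 at day 7 (adjusted p = 0.797) and 0.48 ± 0.23 at day 14 (adjusted p = 0.362), when all 7 mice lay above the baseline median. Ccl25, the ligand of the gut-homing receptor Ccr9, had group medians between 10.2 and 12.7 normalized counts and a day 7 log2 fold change of -0.26 ± 0.27 (adjusted p = 0.533). Cxcl16, a membrane-bound ligand of Cxcr6 on macrophages and dendritic cells, had medians of 13.9, 23.5 and 20.7 at baseline, day 7 and day 14. Its day 7 log2 fold change was 0.46 ± 0.35 (adjusted p = 0.387). Without baseline mouse 5, which had 56.8 normalized counts, it was 0.96 and called (adjusted p = 0.0177). That fit kept the lymphocyte-rich day 7 mice 10 and 15, with 55.3 and 40.5 normalized counts. Without all 4 lymphocyte-rich libraries Cxcl16 was not called. Windows shared with Zmynd15, which overlaps Cxcl16 on the opposite strand, made up 18.2%.

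Ligands and receptors of lymphoid tissue had their highest values in a few libraries spread over the time points. Ccl21a, the ligand that brings Ccr7-bearing T cells and dendritic cells into lymph nodes, had 2.81, 8.28 and 162 normalized counts at baseline, 7.92, 17.4 and 247 at day 7 and 4.07, 13.2 and 147 at day 14. The highest value of each group came from a lymphocyte-rich library, and the other such library, day 7 mouse 15, was the second highest of its group. The log2 fold change at day 7 was 1.36 ± 0.997 (adjusted p = 0.365). Without mouse 5 it was 3.09 and called (adjusted p = 0.0464), and without all 4 lymphocyte-rich libraries 1.18 (adjusted p = 0.162). Since 61.3% of its windows also occurred in Ccl21b or in other near-identical copies, its count is uncertain. Cxcl13, which brings Cxcr5-bearing B cells into follicles, was the most variable member: it had 0, 17.2 and 78.3 normalized counts at baseline, 0, 19.3 and 72.3 at day 7 and 0, 4.72 and 29.9 at day 14. A count of 0 in 1 mouse of each group allows 2.87 to 4.54 normalized counts (3 counts, counting error only). The 2 highest mice, baseline mouse 4 and day 7 mouse 14, were not lymphocyte-rich. Its log2 fold changes from baseline were 0.00 ± 0.92 at day 7 (adjusted p = 0.999) and -1.35 ± 0.94 at day 14 (adjusted p = 0.592).

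Cxcr4, the receptor for Cxcl12 on lymphocytes and many other leukocytes, had 3.02, 8.21 and 20.3 normalized counts at baseline, 3.83, 11.2 and 45.6 at day 7 and 7.56, 14.8 and 28.01 at day 14. Its 4 lymphocyte-rich values, 20.3 to 45.6, were all above the other 19, which reached 16.3. The day 7 log2 fold change was 0.89 ± 0.49 (adjusted p = 0.221) with all mice and 0.13 (adjusted p = 0.857) without those libraries. Cx3cr1, the fractalkine receptor of monocytes and resident macrophages, had 1.51, 10.03 and 32.1 normalized counts at baseline, 9.03, 20.97 and 48.8 at day 7 and 12.5, 13.9 and 34.5 at day 14. Here too the 4 lymphocyte-rich libraries (32.1 to 48.8) did not overlap the rest (at most 24.4). The day 7 log2 fold change of 0.92 ± 0.42 was not called (adjusted p = 0.134). It was 1.31 and called without baseline mouse 5 (adjusted p = 0.0267), and 0.81 without the 4 libraries (adjusted p = 0.0922).

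Together the 4 lymphocyte-rich libraries held 18.4% of all counts. They held 91.3% of the counts of Ccr7, the receptor for Ccl19 and Ccl21, 87.1% of those of Cxcr5, the receptor for Cxcl13, and 86.5% of those of Ccr6. Their share was 82.5% for Ccl19, 88.3% for Ccl22, a ligand of Ccr4 made by dendritic cells, 84.6% for Ccr9 and 76.6% for Ccl21a. For Ccl6 it was 19%, for Ccl11 20.0% and for Ccl9 20.5%, near the share of all counts, and for Ccr2 26.8%. Of the 50 symbols, 11 were higher in all 4 of these libraries than in every other mouse. Among the 14 members that passed the filter on low counts it was 3, against 4.55% of all genes tested. Most of the 50 symbols did not pass that filter, so that percentage is no background for the 11. The like share over all symbols was not worked out, so whether 11 of 50 exceeds it is not known. The 11 were Ccr7, Ccl22, Cxcr5, Ccr6, Ccr9, Ccl19, Ccl5, Cxcr6 and, among the reported members, Ccl21a, Cxcr4 and Cx3cr1. None of the 50 symbols is on the B or T cell marker lists by which these libraries were set apart. Ccl19 shared 50.5% of its windows with near-identical copies.

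**Figure D3:**
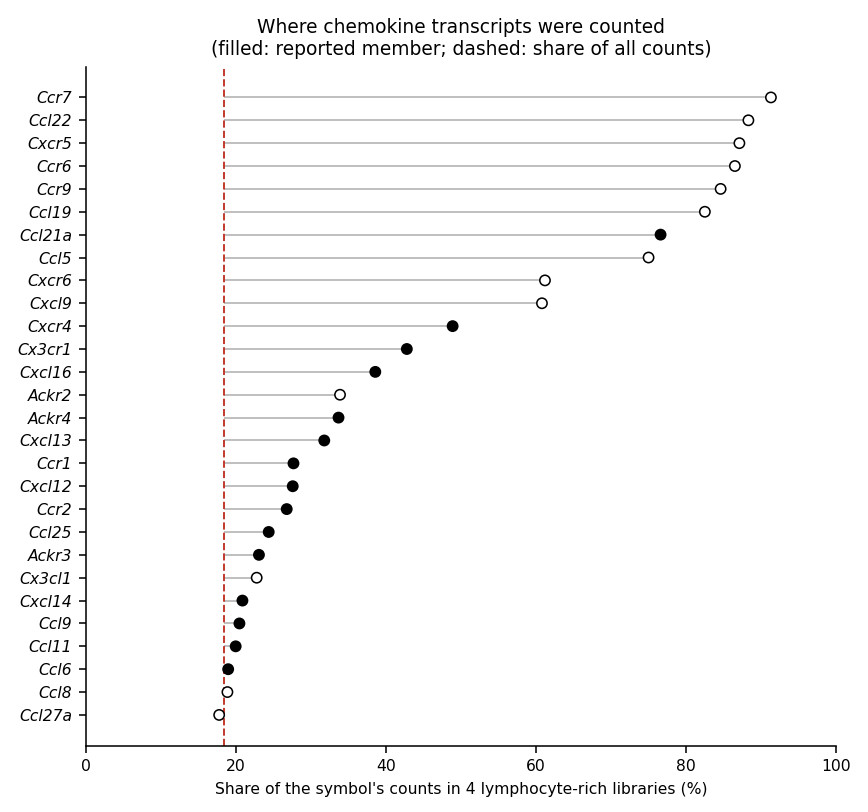
Percentage of each symbol's counts that fell in the 4 lymphocyte-rich libraries (horizontal axis), for the 28 symbols with at least 100 counts over 23 mice, with filled points for reported members and a dashed line at the 18.4% these libraries held of all counts. Ccr7 at 91.3% and Ccl22 at 88.3% lie farthest right, and Ccl6, Ccl9 and Ccl11 lie at 19% to 20.5%, near the line.

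Single mice, lymphocyte-rich or not, led several members at once. Baseline mouse 4 was the highest of its group for 6 of the 15 members, namely Ccr2, Ccl6, Ccl11, Ccl9, Cxcl13 and Ccr1, and baseline mouse 5 for another 7. Baseline mouse 8 was the lowest of its group for 8. At day 7, mouse 14 was the highest for 6 members (Ccl6, Ccl11, Ccl9, Cxcl13, Ackr4 and Ccr1) and mouse 10 for another 6, and at day 14 mouse 21 was the highest for 8. In baseline mouse 4 the 7 neutrophil marker genes present summed to 179 normalized counts, against at most 51.1 in any other mouse, and 12 macrophage and monocyte markers to 1624. Baseline mouse 5 had a higher macrophage and monocyte sum, 1857. Its normalized counts of Ccl6 (11.8), Ccl9 (17.1) and Ccr2 (32.1) were each below the baseline median. Mouse 8, with 506.6, had the lowest macrophage and monocyte sum of all 23 mice. The part of these cells in the chemokine values was not tested.

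By day 14 no member was called against baseline or against day 7. Against baseline, 12 of the 14 members had a positive log2 fold change with a median of 0.31 (all genes 0.01). In edgeR 2 members had an unadjusted p under 0.05 (Ccr2 and Cxcl14), as did 1619 of all 12195 genes. The smallest adjusted p among the members was 0.327. DESeq2 also called 0. Over all genes 0.787% were called in either direction. Ccr2 had the largest value, 0.69 ± 0.31, and 6 of 7 day 14 mice lay above its baseline median. Against day 7, 11 of the 14 were negative with a median of -0.49 (all genes -0.01), and 0.377% of all genes were called in either direction. In edgeR 4 members had an unadjusted p under 0.05, as did 1721 of all 12195 genes. The log2 fold changes of these 4 from day 7 to day 14 were -1.02 ± 0.34 for Ccl6, -0.82 ± 0.30 for Ackr4, -0.74 ± 0.28 for Ccr2 and -0.70 ± 0.26 for Ccl9, with adjusted p from 0.156 to 0.215. The day 7 mice also enter the comparison of day 7 with baseline, so these values are not independent of the day 7 calls. DESeq2 called 0 and gave 13 of 15 members no adjusted p in this comparison.

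Between females and males over all time points, 0 of 14 members were called by edgeR or by DESeq2, against 0.23% of all genes in edgeR. In edgeR 1 member had an unadjusted p under 0.05, as did 1097 of all 12195 genes. This member was Ackr4, lower in females by a log2 fold change of -0.64 ± 0.25 (adjusted p = 0.395). At day 7 it had 8.88 ± 3.36 normalized counts in females (SD, n = 4) and 13.6 ± 2.90 in males (n = 4).

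Within each sex, the day 7 log2 fold changes of Ccl6, Ccr2, Ccl9 and Ccl11 were larger in males, and the difference between the sexes did not pass the test. In males 4 of 15 members were called higher at day 7 than at baseline (2.89% of all genes): Ccl6 with a log2 fold change of 2.35 ± 0.46, Ccr2 with 1.96 ± 0.36, Ccl9 with 1.80 ± 0.32 and Ccl11 with 0.95 ± 0.26. In females 0 of 15 were called higher (0.982% of all genes), and the same genes had values of 0.70 ± 0.42, 0.87 ± 0.34, 0.31 ± 0.30 and -0.03 ± 0.24. In females 3 members had an unadjusted p under 0.05 in edgeR, a count whose share over all genes was not worked out. Under total count scaling 4 members were called higher in females and 7 in males. That scaling called 2754 of 12933 genes in females and 3768 in males, in either direction. Females minus males, the interaction at day 7 was -1.65 ± 0.63 for Ccl6, -1.50 ± 0.44 for Ccl9, -1.09 ± 0.50 for Ccr2 and -0.99 ± 0.35 for Ccl11. These 4 of 15 had an unadjusted p under 0.05 in edgeR, as did 5.44% of all genes. Their adjusted p was 0.481 or more, and 0 of 15 members passed (0.00773% of 12933 genes did). At baseline Ccl9 had 28.1 ± 10.7 normalized counts in females (SD, n = 4) and 16.01 ± 2.70 in males (n = 4), and at day 7 it had 35.2 ± 15.6 and 56.3 ± 21.2. Baseline mouse 4 is female, and without it the female values at day 7 were 1.13 for Ccl6, 1.26 for Ccr2, which was then called (adjusted p = 0.0494), and 0.57 for Ccl9. The day 7 interaction without mouse 4 had an unadjusted edgeR p of 0.0621 for Ccl6 and 0.16 for Ccr2. It was 0.0108 for Ccl9 and 0.0221 for Ccl11 (adjusted p = 0.963 for each of these genes). The male call of Ccl11 was lost without any of mice 6, 8 or 14. Without the lymphocyte-rich libraries 5 members were called higher in males and 0 in females. That fit called 630 genes in males and 222 in females, in either direction. It lacked baseline male mouse 5, day 7 male mouse 15 and day 7 female mouse 10, so its groups were smaller. In the day 14 interaction, 0 of 15 passed (0% of all genes) and only Ccl11 had an unadjusted p under 0.05 (3.67% of all genes did), at -1.30 ± 0.37 (adjusted p = 1). Ccl11 had 27.7 ± 4.49 normalized counts in females at day 14 (SD, n = 3) and 40.2 ± 10.5 in males (n = 4), against 37.2 ± 9.70 and 21.7 ± 8.27 at baseline (n = 4 each).

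**Figure D4:**
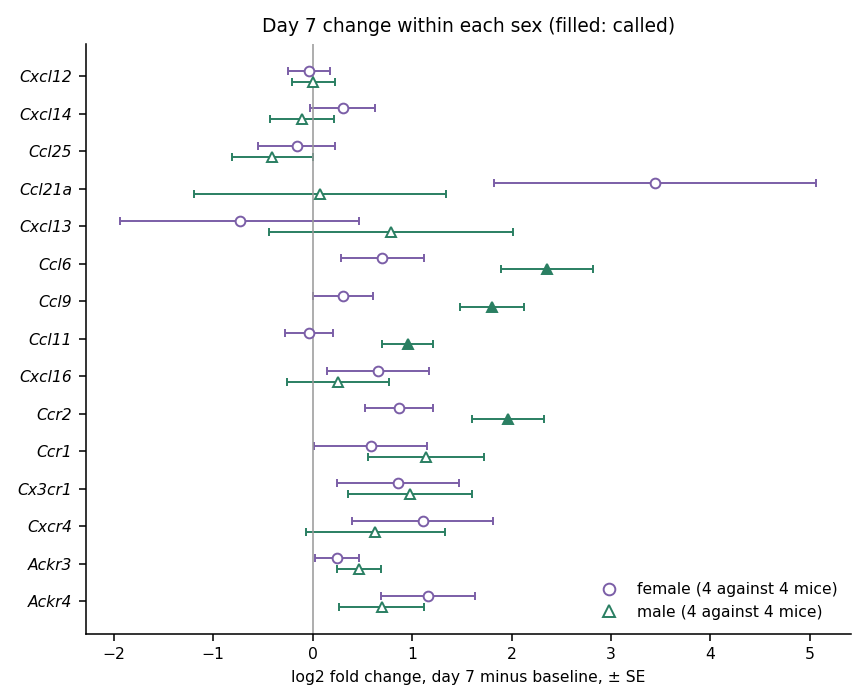
Log2 fold change from baseline to day 7 with its SE (horizontal axis) for the 15 members within females (circles) and males (triangles), with filled points for members called. Ccl6, Ccr2, Ccl9 and Ccl11 are filled in males and no member in females, while the test of the difference passed for no member.

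The other 35 symbols had too few counts to be reported. Just inside the limit were Ccr1 and Ackr4 with 10 or more counts in 7 mice each. Just outside were Ccl5 and Cxcl9 with 6 mice, then Ccr7 and Cx3cl1 with 5. For 18 of the 35, no mouse reached 10 counts. Among these were the 3 neutrophil ligands Cxcl1, Cxcl2 and Cxcl5, which together had 0 to 4.57 normalized counts in any mouse, and their receptor Cxcr2 with at most 8 counts. The monocyte attractants Ccl2 and Ccl7, ligands of Ccr2, had at most 6 and 5 counts in any mouse, although Ccr2 itself was the receptor with the most counts, and the macrophage inflammatory proteins Ccl3 and Ccl4 had at most 4 and 3. Ccl5, a ligand made by T cells among others, reached 83 counts in day 7 mouse 10, and its 4 highest normalized counts were those of the lymphocyte-rich libraries (20.5 to 54.0, against at most 16.3). The 8 scarce monocyte and macrophage ligands summed to medians of 10.03 normalized counts at baseline, 29.8 at day 7 and 11.7 at day 14, with ranges of 2.67 to 37.5, 4.84 to 74.2 and 6.71 to 28.01. The 3 interferon-induced ligands of Cxcr3, Cxcl9, Cxcl10 and Cxcl11, had sums of up to 24.6 in baseline, 62.5 in day 7 and 24.3 in day 14 mice.

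The genes around the chemokine system were read from lists of inducers, signalling proteins and enzymes. Of 21 tested inducers of chemokine genes, 3 were called higher and 0 lower at day 7 (median log2 fold change 0.24): the interleukin 1 receptor Il1r1 (0.75 ± 0.14, adjusted p = 0.00042), the lipopolysaccharide receptor Tlr4 (0.89 ± 0.23, adjusted p = 0.00848) and the interferon gamma receptor chain Ifngr1 (0.62 ± 0.18, adjusted p = 0.0188). Of 26 proteins that signal below chemokine receptors or end their signal, 0 were called in either direction by edgeR at day 7 and their median was 0.28. Of 15 genes for processing and presentation, 3 were called higher and 0 lower, with a median of 0.23. These were the proteases Mmp2 (1.16 ± 0.13, adjusted p = 6.91e-07) and Mmp14 (1.07 ± 0.14, adjusted p = 4.08e-06) and the dipeptidyl peptidase Dpp4, which trims the amino ends of chemokines (0.64 ± 0.18, adjusted p = 0.0154). Mmp2 and Mmp14 were also called at day 14. Of 8 tested relatives outside the name rule, among them Pf4, Cmklr1 and its ligand Rarres2, 0 were called.

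Markers of the cells that carry these genes moved at day 7 as well. Of 11 tested macrophage and monocyte markers 9 were called higher and 0 lower (median log2 fold change 0.89), and the sum of the 12 on the list ranged over 506.6 to 1857 normalized counts in baseline mice, 1187 to 2751 in day 7 mice and 822.6 to 1593 in day 14 mice. The median of the 14 chemokine members was 0.67. The macrophage marker Adgre1, for example, changed by 0.89 ± 0.25 (adjusted p = 0.0155) and Ms4a7 by 1.86 ± 0.31 (adjusted p = 0.000134). Of 9 fibroblast markers, 8 were called higher, and 5 of 9 acinar markers were called lower. Of 7 tested B cell markers 0 were called, and none of the macrophage, B cell or T cell markers was at 0 in every mouse. The part of these cells in the chemokine changes was not tested. With a lymphocyte marker score as a covariate the same 4 members were called at day 7. Without the 4 lymphocyte-rich libraries the log2 fold changes were 1.24 for Ccr2, 1.37 for Ccl6 and 0.96 for Ccl9, all still called (adjusted p from 0.0145 to 0.0386), and Ackr4 fell under the filter on low counts.

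Of the scalings tried, total count scaling changed the number of members called the most. Scaling to the total count, which moved the median log2 fold change of all genes at day 7 from 0.02 to 0.48, called 9 of 14 members higher and 0 lower. It called 3674 of all 12195 genes higher and made 99.4% of all calls higher, compared with 74.4% under TMM. Relative to the median of all genes the median of the 14 members was higher by 0.65 under total count scaling and by 0.65 under TMM. Of the 4 members, Ccr2, Ccl6 and Ccl9 were called at day 7 under every alternative and without each single mouse.

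**Figure D5:**
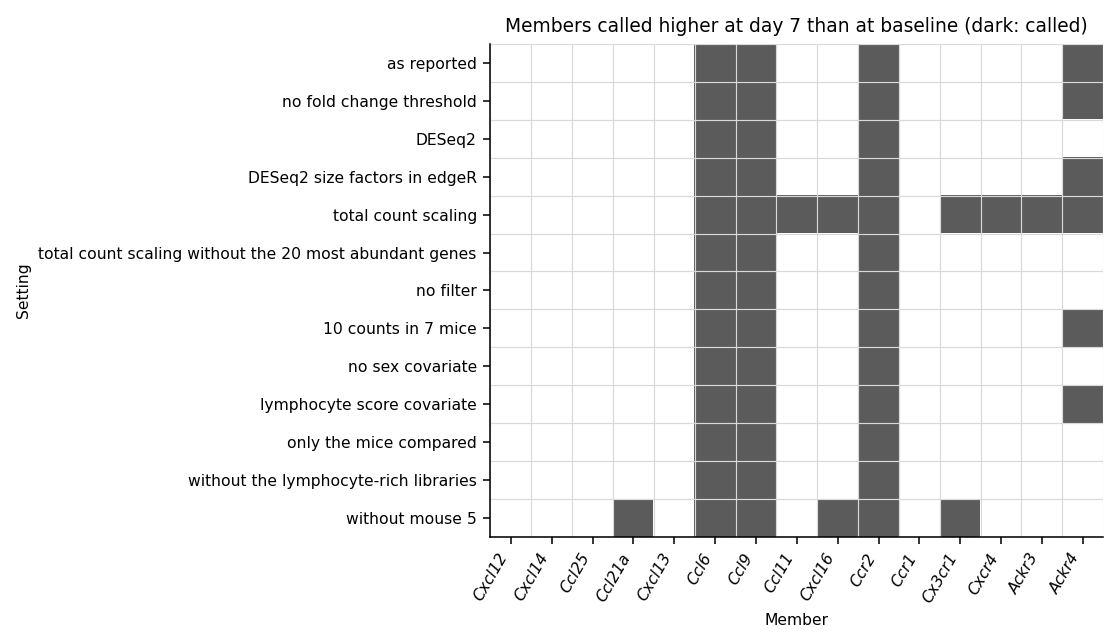
Members called higher at day 7 than at baseline (dark cells) under each processing setting (rows) for the 15 reported members (columns), with the 1 mouse whose removal moved the count most. Ccl6, Ccl9 and Ccr2 are dark in every row and Ackr4 in 6 of 13.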

How the data were processed

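RNA-seq counts of 23 mice were used: 8 at baseline, 8 at day 7 and 7 at day 14. The deposited values are whole-number counts of fragments per gene symbol, which the authors made from ribosome-depleted stranded libraries of total RNA by aligning trimmed paired reads to mm10 with STAR 2.5.2a and counting uniquely mapped fragments with featureCounts. FastQC, Trim Galore and cutadapt are named in the submitters' processing notes. 1 gene whose name fits the rule is not reported here and is left out of all counts of members. The annotation and the strand setting of the counting are not given in the sources used here. No column was left unmatched to a mouse.

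TMM scaling and the quasi-likelihood test of edgeR 4.0.16 in R 4.3.3 (with limma 3.58.1, robust) were applied to the 12195 genes that filterByExpr kept, in a single model of the 23 mice with terms for time point and sex. Sex by time was tested over 12933 genes in a fit of 6 groups. P-values are two-sided and Benjamini-Hochberg adjusted over the genes tested. A gene was called at an adjusted p no higher than 0.05 together with a change of 1.5-fold or more, and for the interaction by the adjusted p alone. The SE was derived from the F statistic of the test and restates it. Log2 CPM used a prior count of 2. Separate samples are separate mice. Shares of counts were compared with exact permutation tests. Windows of 75 bases of GENCODE vM21 transcripts were searched for in the transcripts of other genes. The fits were tested on simulated data. Tables and figures were made in Python 3.11.15 (pandas 2.3.3, matplotlib 3.10.9).

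The members, the gene lists, the rule for named genes and the tests were chosen with earlier results of these data known. A member is given in full if it was called, had 1 of the 5 smallest p-values of a time comparison among members, 1 of the 6 highest levels per length or 1 of the 5 largest SDs within groups. Genes outside the family are named if they are called on a list, at most 4 per list. The lists hold markers of 16 cell types, inducers, signalling proteins, processing enzymes and relatives. Alternatives were DESeq2 1.42.0, its size factors in edgeR, total count scaling with and without the 20 most abundant genes, no filter, a filter of 10 counts in 7 mice, no fold threshold, only the mice compared, no sex covariate, a lymphocyte marker score as a covariate, and leaving out each mouse. Leaving out the 4 lymphocyte-rich libraries and the share of counts outside the 20 most abundant genes were chosen after seeing the data. Total counts were 7059890 to 9567446 per mouse, which limits precision most for members with few counts.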

Additional observations from a re-analysis of the deposited data

Results flagged for a closer look

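Of 45 member and time point groups examined with Dixon's test on log2 CPM, 2 had a mouse that stood apart from the rest of its group. Chance flags about 1 group in 20. Cx3cr1 in day 14 mouse 21 had 34.5 normalized counts (37 counts), with the gap to the next mouse taking 0.747 of the group's range. Ccl21a in baseline mouse 5 had 162 normalized counts (151 counts), and that gap took 0.667 of the range. Both mice are among the 4 lymphocyte-rich libraries.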

How the results depend on the processing

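Of the 11 alternatives to the day 7 count of 4 members, 10 called 3 or 4. Total count scaling called 9 at day 7, 1 at day 14 (Cxcl14) and 4 between day 14 and day 7 (Ackr4, Ccl6, Ccl9 and Ccr2, lower at day 14). Of all 12195 genes it called 3674 higher at day 7, 440 higher at day 14 and 459 lower at day 14 than at day 7. Leaving out each mouse gave 3 to 6 (without mouse 5) calls at day 7 and 0 in every other comparison, sexes and interaction included. The call of Ackr4 was also lost with DESeq2 (adjusted p = 0.0686), without the filter (0.0612) and without the sex covariate (0.0638), and Ackr4 fell under the filter on low counts with only the mice compared, with the 20 most abundant genes left out of the total and without the lymphocyte-rich libraries. The share of counts between day 14 and day 7 differed by -0.00634 percentage points outside the 20 most abundant genes (exact permutation p = 0.1) and by -0.00407 to -0.00259 when each mouse was left out. The causes were not tested.

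Some log2 fold changes changed sign, and none of these was called. Log2 fold changes of Cxcl12 became 0.442 at day 7, 0.198 at day 14 and -0.244 between them with total count scaling, and 0.0607, 0.00523 and -0.0555 with the 20 most abundant genes left out of the total. The 0.442 had an adjusted p of 0.0416 in edgeR and was not called because it lay under the 1.5-fold threshold. Day 7 values became 0.204 for Ccl25 with total count scaling, and for Cxcl13 -0.0137 with DESeq2, -0.000957 with its size factors, -0.00831 with no filter, -0.423 with the lymphocyte score and -0.452 without the lymphocyte-rich libraries. Leaving out those libraries made the day 14 minus day 7 values of Ackr3 0.098, Ccl21a 0.18 and Cxcr4 0.314. With only the mice compared, Cxcl12 was -0.0079 between day 14 and day 7 and Cxcl16 was -0.00789 at day 14. With each mouse left out, Cxcl12 spanned -0.106 to 0.0951 at day 7, -0.134 to 0.107 at day 14 and -0.121 to 0.0879 between them. At day 7 Cxcl14 spanned -0.0194 to 0.216 and Cxcl13 -0.391 to 0.606. At day 14 the spans were -0.124 to 0.531 for Cxcl16, -0.508 to 2.36 for Ccl21a and -0.102 to 0.183 for Ackr4. Between day 14 and day 7 they were -0.168 to 0.00163 for Ackr3 and -1.7 to 0.3 for Ccl21a. Of 1356 recomputed member values, 378 of the alternatives and 887 of the values without 1 mouse kept direction and call. No paired analysis was possible because each mouse number belongs to 1 mouse and no groups share one. For members with few counts the depth limits the precision.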

Other observations

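Of the 6 lymphatic endothelium markers, the cells known to make Ccl21a in vessels, 1 was called higher at day 7 and 0 lower: the lymphatic fate regulator Prox1 changed by 0.76 ± 0.18 on the log2 scale (edgeR, adjusted p = 0.0044). The list had a median of 0.69 and 6 positive values, and its sum was 89.8 to 339.5 normalized counts at baseline and 155.9 to 436.7 at day 7. Of 7 blood endothelium markers 0 were called at day 7 (median -0.31), and the capillary marker Emcn was higher at day 14 than at day 7 by 0.64 ± 0.12 (adjusted p = 0.00487). Of 7 islet markers 4 were called higher at day 7 (median 0.97), among them Ins1 (1.04 ± 0.27) and Iapp (1.11 ± 0.26). Of the 2 dendritic cell markers tested Zbtb46 was lower (-0.60 ± 0.12, adjusted p = 0.000669) and Itgax was not called (0.63 ± 0.64, adjusted p = 0.53). Of 6 mesothelium markers 1 was called higher at day 7, Krt7 (0.74 ± 0.26), with 3 positive values and a median of 0.01. Of 6 ductal markers 1 was called higher, Spp1 (0.72 ± 0.12), with 2 positive values and a median of -0.08. Of 6 pericyte and smooth muscle, 5 adipocyte, 1 mast cell and 1 T cell marker tested, 0 were called at day 7 by edgeR, and the only tested gene of the lymph node stroma list was not called. No neutrophil marker passed the filter on low counts. Fibroblast markers called at day 7 included Pdgfra (0.88 ± 0.09) and Lum (1.41 ± 0.16), and both were also called at day 14 with Dpt. Acinar markers called lower at day 7 included Pnlip (-0.88 ± 0.08) and Prss2 (-0.94 ± 0.10).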
